A study of Mus musculus with 13 samples.

Results

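Broad H3K27ac domains were defined here as consensus regions of 20000 bp or more, and 1791 of the 40691 regions in the deposited table (4.40%) met that rule. H3K27ac, an acetylation of histone H3 carried by active promoters and enhancers, was measured by ChIP-seq in mouse bone marrow-derived macrophages, which were grown from marrow precursors in medium with M-CSF, the growth factor that drives precursors to become macrophages. All cells, untreated ones included, had the genotype IL10-/-RAG2-/- on the 129S6/SvEvTac strain, so that they lacked IL-10 of their own and came from animals without mature T and B cells. There were 4 groups of 3 libraries. The first was untreated, the second received LPS (lipopolysaccharide, a bacterial cell wall component) at 1 ng/mL for 195 min, and the third received IL-10 at 1 ng/mL together with that LPS for the same 195 min (continuous IL-10). The fourth received LPS for 195 min with IL-10 present over the last 30 min (late IL-10, whose dose the labels do not repeat). The 3 replicates came from 3 independent macrophage pools, and p-values here measure the spread between those pools. The width rule used no signal values, and each region has the same limits in every library. Those limits are a consensus over libraries, so a region may owe its width to the groups where it is high.

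Broad stretches of H3K27ac form where many neighbouring enhancers, often with the promoter they serve, are acetylated together. In many cell types they lie at genes that define the cell or that it induces strongly, such as lineage transcription factors and, in macrophages, cytokine and interferon-response genes. LPS is sensed through TLR4, which activates NF-kB, AP-1 and, through secreted type I interferon, the STAT and IRF factors. IL-10 acts on the same cells through its receptor and STAT3 and restrains much of that response.

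Promoter sequences of 5 genes are given first because the results below turn on their domains. Ch25h makes an oxysterol with antiviral activity, Cxcl10 is a chemokine of the interferon response and Rsad2 (viperin) is an antiviral enzyme. Socs3 is an inhibitor of cytokine signalling, and Il4ra is a receptor chain for IL-4 and IL-13. Each window is the RefSeq sequence on GRCm38.p6 (the same assembly as mm10) from 250 bases before to 50 bases after the start, read 5′ to 3′ on the strand of the gene. The windows are chr19:34475099-34475398 on the minus strand for Ch25h, chr5:92348840-92349139 on the minus strand for Cxcl10, chr12:26456403-26456702 on the minus strand for Rsad2, chr11:117969317-117969616 on the minus strand for Socs3 and chr7:125552021-125552320 on the plus strand for Il4ra. Capitals mark matches, on either strand, to short motifs. In Ch25h they are a match to the TATA letters (TATAAA, wherever in the window they stand), a C/EBP match (TTNNGCAA) and a CRE match (TGACGTCA). In Cxcl10 they are an ISRE (the interferon-stimulated response element, searched as GAAA, any 2 bases, GAAA), 3 NF-kB matches of which 2 overlap, and an AP-1 match (TGANTCA). In Rsad2 they are an ISRE, an AP-1 match and a match to the TATA letters, in Socs3 a STAT match (TTCNNNGAA) and in Il4ra an NF-kB match.
Ch25h: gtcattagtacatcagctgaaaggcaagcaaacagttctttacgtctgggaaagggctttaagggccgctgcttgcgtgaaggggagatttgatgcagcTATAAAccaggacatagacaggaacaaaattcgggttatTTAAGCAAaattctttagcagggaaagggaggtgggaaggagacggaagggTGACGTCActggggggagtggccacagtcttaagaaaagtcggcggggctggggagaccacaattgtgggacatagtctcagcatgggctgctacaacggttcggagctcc
Cxcl10: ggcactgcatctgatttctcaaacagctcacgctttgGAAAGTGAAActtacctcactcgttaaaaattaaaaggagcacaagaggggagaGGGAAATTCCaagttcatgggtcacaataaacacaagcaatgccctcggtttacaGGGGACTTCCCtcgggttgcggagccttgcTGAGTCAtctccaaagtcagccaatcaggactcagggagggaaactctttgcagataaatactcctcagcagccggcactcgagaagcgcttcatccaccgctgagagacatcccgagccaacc
Rsad2: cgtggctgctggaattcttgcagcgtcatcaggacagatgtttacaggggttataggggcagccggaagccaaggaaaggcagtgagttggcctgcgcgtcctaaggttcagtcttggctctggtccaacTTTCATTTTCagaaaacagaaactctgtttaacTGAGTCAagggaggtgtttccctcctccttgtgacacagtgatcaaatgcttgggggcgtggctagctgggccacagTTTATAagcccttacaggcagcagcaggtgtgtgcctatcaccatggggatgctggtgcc
Socs3: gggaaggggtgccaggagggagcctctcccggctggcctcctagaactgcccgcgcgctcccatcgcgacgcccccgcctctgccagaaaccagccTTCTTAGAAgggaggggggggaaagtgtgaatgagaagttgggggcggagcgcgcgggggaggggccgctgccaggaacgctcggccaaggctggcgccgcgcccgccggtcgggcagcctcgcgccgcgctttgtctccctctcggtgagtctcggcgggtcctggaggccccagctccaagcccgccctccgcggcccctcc
Il4ra: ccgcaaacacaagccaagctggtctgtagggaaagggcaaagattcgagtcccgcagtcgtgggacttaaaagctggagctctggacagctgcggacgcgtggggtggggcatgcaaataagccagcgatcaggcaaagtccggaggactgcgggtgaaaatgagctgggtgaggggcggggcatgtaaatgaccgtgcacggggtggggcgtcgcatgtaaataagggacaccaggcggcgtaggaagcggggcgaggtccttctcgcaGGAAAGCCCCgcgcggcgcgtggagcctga

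Of 21263 such windows for 17492 genes, 1231 windows of 1000 genes began inside a domain. A match is a description of the letters, and a window without one says nothing about the factor. NF-kB letters stood in 13.3% of the windows inside domains, in 10.2% of those inside narrower regions and in 9.25% of all windows. PU.1 letters (GAGGAAGT), PU.1 being the lineage factor of macrophages, stood in 6.26%, 3.02% and 3.13%. In the same order the shares were 3.98%, 3.27% and 3.35% for the ISRE, 7.47%, 4.74% and 6.99% for AP-1, and 10.7%, 8.17% and 10.2% for C/EBP. They were 8.12%, 6.64% and 7.69% for STAT, 2.11%, 3.34% and 2.23% for the CRE, and 10.1%, 6.67% and 12.6% for the TATA letters. A CpG observed-to-expected ratio over 0.6 was found in 50.7% of the windows inside domains, in 74.3% of those inside narrower regions and in 47.6% of all. Among the 385 windows in domains that rose with LPS, 14.3% held NF-kB letters, 5.20% an ISRE and 3.90% PU.1 letters. Among the 297 in domains that fell with LPS, these shares were 10.1%, 3.70% and 8.42%.

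Genes of microRNAs, short RNAs that silence messengers through the seed at bases 2 to 8, lay inside 47 domains. These domains held 56 of the 1005 miRNA genes in the RefSeq table, and 54 of the 56 had a mature sequence. This look-up was chosen after values had been seen. The 5 mature RNAs printed here lie in domains that changed with LPS, and capitals mark the seed. Their positions on GRCm38.p6 are chr16:84714143-84714165 on the plus strand (miR-155-5p), chr11:86584120-86584141 on the minus strand (miR-21a-5p), chr1:195037091-195037113 and chr1:195037600-195037621 on the plus strand (miR-29b-3p and miR-29c-3p, which share a seed), and chr5:139369708-139369730 on the minus strand (miR-339-5p).
miR-155-5p: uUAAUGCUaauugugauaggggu
miR-21a-5p: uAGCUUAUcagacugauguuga
miR-29b-3p: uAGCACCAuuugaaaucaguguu
miR-29c-3p: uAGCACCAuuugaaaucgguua
miR-339-5p: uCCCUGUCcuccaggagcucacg

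The domains covered 62.1 Mb, or 27.5% of the length of all regions. Their median width was 29083 bp (quartiles 23570.5 and 38893.5 bp), against 3062 bp over all regions. There were 219 domains of at least 50 kb and 24 of at least 100 kb. The 5 widest lay over Lpp (220316 bp), a focal adhesion protein gene, over Cebpb (191681 bp), which encodes a transcription factor of myeloid cells, over Tomm20 (189870 bp), which encodes a mitochondrial import receptor, near Prdm1 (148756 bp) and over Tnfaip3 (140516 bp), which encodes the NF-kB inhibitor A20. At the threshold, the narrowest domains lay over Cask (20002 bp) and near Nuak1 (20009 bp), and the widest regions left out lay over Fndc3b (19994 bp) and Otulin (19974 bp).

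A protein-coding gene was overlapped by 1399 domains (78.1%), against 67.2% of the narrower regions, and 775 domains (43.3%) held a transcription start, against 20.9%. Per unit of length the order was the other way, with 54.3% of the domains' bases and 59.0% of the other regions' bases inside genes. Exactly 1 gene was overlapped by 1010 domains, and 7 was the most. No gene was overlapped by 392 domains, and 87 of these had none within 100 kb. Of the overlapped genes 1395 had a promoter window. There were 178 genes with more than 1 domain. Lpp had 4, with a summed width of 405477 bp, and Hivep2, Trps1, Nsmce2, Srgap2 and Pdcd1lg2 also had 4. Domains made up 5.06% of the regions on chromosome 2 and 2.25% of those on chromosome X.

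The labelled cell type was checked against markers. In all, 1739 of 21900 protein-coding genes (7.94%) overlapped a domain. Of 38 macrophage identity genes, 30 overlapped a domain, among them Csf1r (the M-CSF receptor), Adgre1 (F4/80), Cd14, Mertk and Lyz2. None of 11 T cell markers and none of 9 erythroid and mast cell markers did. The counts were 1 of 8 for B cells (Ms4a1), 3 of 12 for neutrophils (Camp, Csf3r and Mmp8), 5 of 9 for dendritic cells and 1 of 8 for fibroblasts. The fibroblast gene was Pdgfrb, which shares its domain with Csf1r. Of 18 housekeeping genes 3 overlapped a domain.

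A domain held a median of 832 to 3758 reads per library, against 18 to 89 for all regions, from 5149730 to 26922552 reads in regions per library. Mean signal per kb was 53.6 to 104 in the domains and 31.8 to 44.2 elsewhere, a ratio of 1.38 to 2.57 across libraries. Regions without signal stand in the table at a floor of 1 read. In single libraries 26 to 127 domains (1.45% to 7.09%) were at that floor, against 20.4% to 31.2% of the narrower regions. A domain at the floor is not shown to lack H3K27ac, since the sources used here do not say whether input reads were taken off. The highest signal per kb was found near Ccr1, on an unplaced scaffold, near Lpp, over Cflar and over Slc39a13 and Spi1, the last encoding PU.1.

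LPS replicate 3 stood apart from the other LPS libraries. Its domains held 34.3% of all region signal, the lowest share of the 12 libraries, against 43.7% and 46.6% in LPS replicates 1 and 2. Within replicates, the median log2 difference of the domains between LPS and untreated cells was -0.23 for replicate 3 and 0.24 and 0.39 for replicates 1 and 2. Over the domains called higher with LPS it was 1.65 for replicate 3 and 2.39 and 2.57 for the others. Counts without the third replicate of each group are therefore given beside the main ones, as an alternative chosen after seeing the data.

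The share of signal in domains was 38.1%, 41.1% and 35.9% in untreated cells and 43.7%, 46.6% and 34.3% after LPS. It was 48.0%, 44.6% and 39.8% in the continuous IL-10 group and 46.4%, 49.4% and 41.4% in the late IL-10 group. The group means were 38.4% ± 2.63, 41.5% ± 6.42, 44.1% ± 4.10 and 45.7% ± 4.00 (SD, n = 3). All groups overlapped except that late IL-10 lay above untreated in every library, a pair that was not tested. The 4 tested differences were 3.16, 2.58, 4.19 and 1.61 percentage points for LPS minus untreated, continuous IL-10 minus LPS, late IL-10 minus LPS and late minus continuous IL-10. Their 2-sided exact permutation p-values were 0.5, 0.6, 0.5 and 0.6 (0.6 each after adjustment over the 4 comparisons), where 0.1 is the smallest possible. Late IL-10 was above LPS in 3 of 3 replicate pairs.

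**Figure D1:**
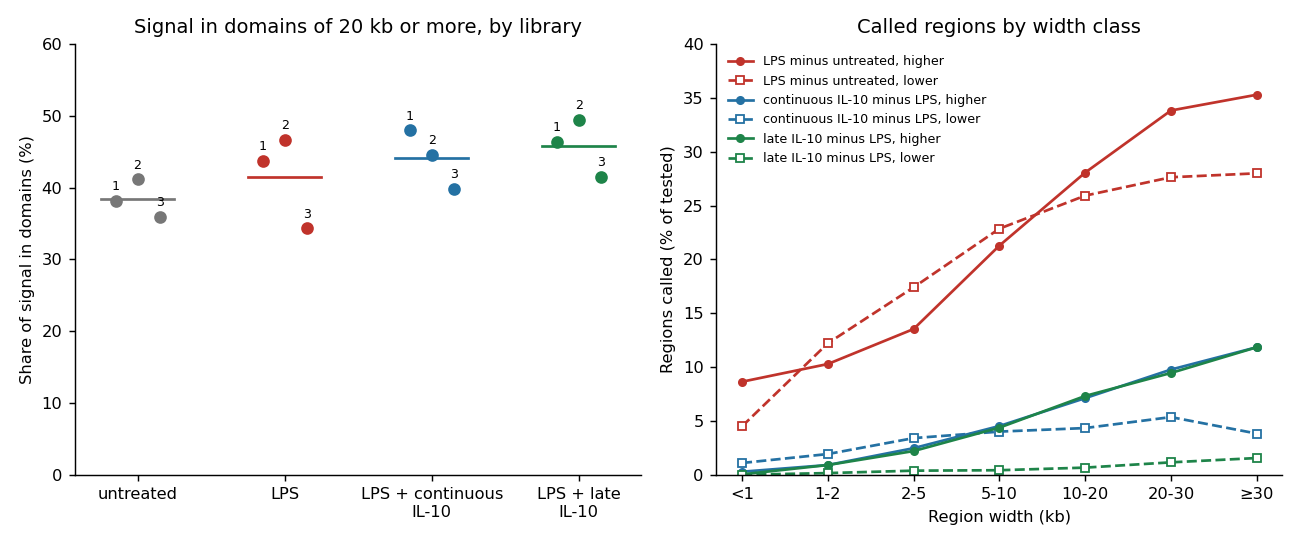
Left, the percent of all region signal that lay in domains of 20 kb or more, a point per library labelled with its replicate number and a line at each group mean; LPS replicate 3 is the lowest at 34.3%. Right, the percent of tested regions called higher (solid) or lower (dashed) by width class, which for LPS rose from 8.64% and 4.50% under 1 kb to 35.3% and 28.0% at 30 kb and above.

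The plot of calls by width class bears on every count below. From regions under 1 kb to those of 30 kb or more, the median reads per library rose from 1.5 to 2116.5 and the median standard error of a log2 difference fell from 0.99 to 0.33. The share called therefore moved with the depth of a region as well as with its width, and these cannot be told apart. The sizes of the differences did not rise with width from 5 kb upward. The median absolute log2 difference with LPS was 1.66 at 5 to 10 kb, 1.5 at 10 to 20 kb, 1.39 at 20 to 30 kb and 1.28 at 30 kb and above.

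LPS changed the larger part of the domains. Of 1788 domains tested, 617 rose (34.5%, against 16.5% of all regions tested) and 497 fell (27.8%, against 17.9% of all regions). The median difference was 2.23 among those that rose and -1.86 among those that fell, and 344 and 218 of them moved by more than 4-fold. The 4-fold counts were not made over all regions. Inflammatory cytokine and effector domains rose, and many domains of macrophage identity genes fell. Over all domains the median log2 difference was 0.14, against -0.06 over all regions. Its sign depended on the scaling, with -0.05 after quantile normalization and 0.39 after median centring. Without replicate 3 of every group, 742 rose and 525 fell. In bulk chromatin, fewer cells with a mark and less of the mark per cell cannot be told apart.

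**Figure D2:**
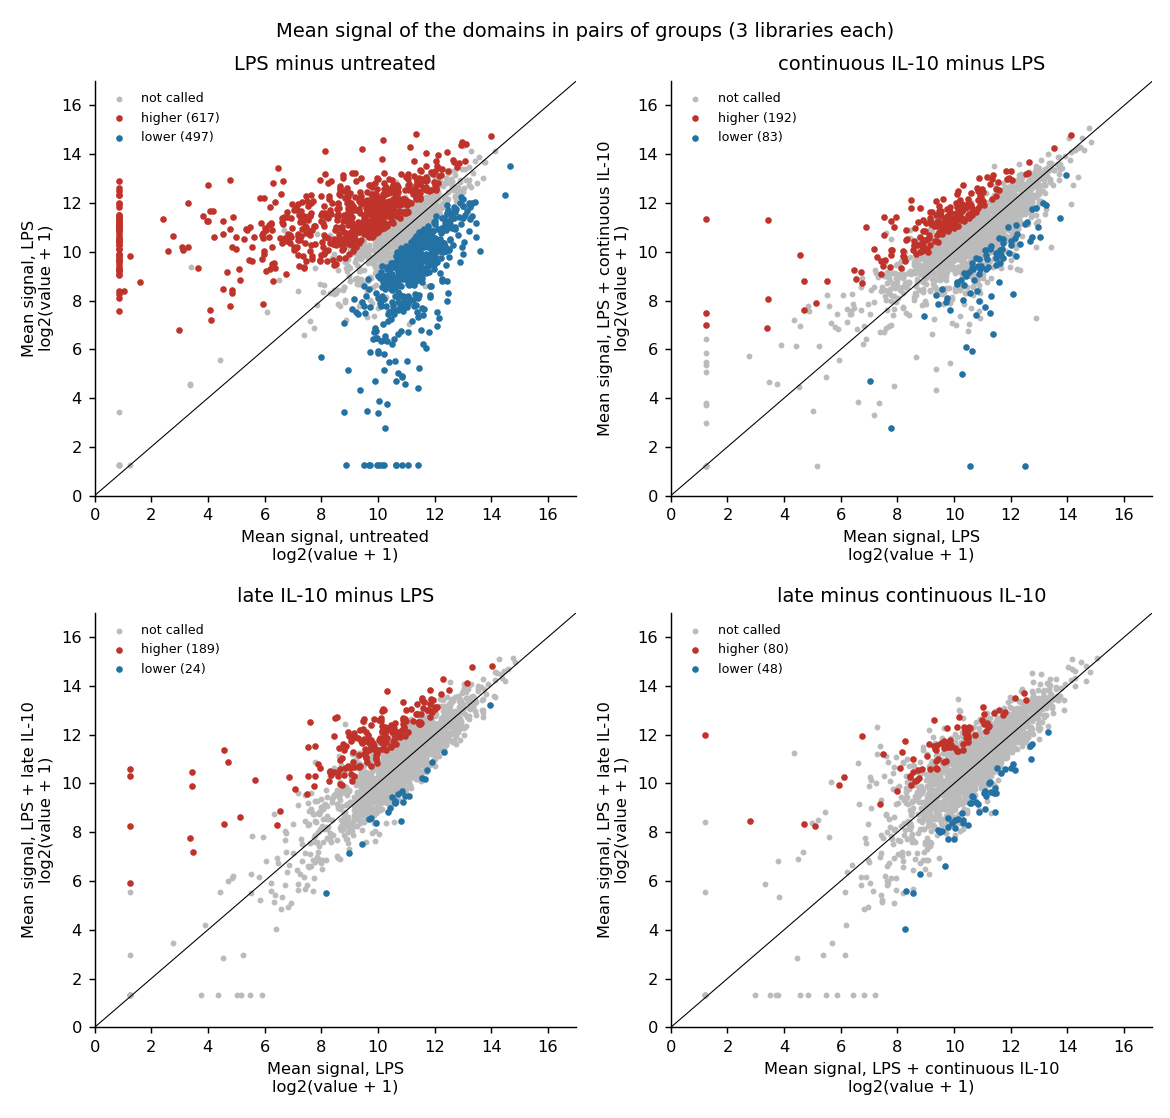
Mean log2(value + 1) of each domain in the 2 groups of each comparison, with domains called higher or lower at an adjusted p under 0.05 in colour and the diagonal marking equality. LPS against untreated has 617 domains above and 497 below, and the column of points near 0 on the untreated axis holds domains at the floor there.

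A total of 64 domains were at or under 3 reads in every untreated library, and 51 of these held more than 100 reads in every LPS library. The reverse, at or under 3 reads in every LPS library with over 100 in every untreated library, held for 13 domains. A domain at the floor in a group may owe its width to the other groups. Most groups received LPS, so these counts are not an even comparison. The first set included the domain over Mrpl39 and the miR-155 gene (chr16:84696250-84722216), miR-155 being a miRNA that activated macrophages make in quantity. All 3 untreated libraries were at the floor there, and signal was 7585, 12074 and 3077 with LPS, at least 3176-fold higher against a floor of 3 reads per library. Continuous IL-10 left it at 3801, 3807 and 1132 and late IL-10 at 7157, 9750.4 and 2561, so both IL-10 groups overlapped the LPS group. The difference with continuous IL-10 was -1.37 (adjusted p = 0.236, and 0.00574 with replicates paired).

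Other domains rose from the floor in all untreated libraries. Signal over Marco, a scavenger receptor gene, was 3046, 3621 and 2141 with LPS, at least 1230.5-fold higher (limma adjusted p = 1.4e-09). Over Adora2a, an adenosine receptor gene, it was 3699, 5136 and 3411, at least 1711-fold higher (adjusted p = 5.81e-09). Signal rose at least 2609-fold near Itgb8 and at least 2145-fold over Alpk2. In these, too, replicate 3 was the lowest LPS library, with 784 near Itgb8 against 7329 and 10563 in the others. A second domain of Fosl2, a gene of the AP-1 family, rose from the floor to 1003, 1199.8 and 607, while the domain at its start was at 1307, 1206 and 2599 untreated and 1375, 1480.5 and 2799 with LPS (difference 0.16, adjusted p = 0.752).

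Cytokine and chemokine genes had 12 domains, of which 10 rose with LPS, none fell and the median difference was 3.15. Over all domains 34.5% rose, 27.8% fell and the median difference was 0.14. In the domain of Lta, Tnf and Ltb, the cluster of TNF and lymphotoxin genes, signal was 4191, 3736 and 5344 untreated and 14928, 17258 and 15555 with LPS. The groups did not overlap, and the difference was 1.86 ± 0.18 (standard error, limma adjusted p = 1.04e-05). Over Cxcl10, whose promoter is shown above, signal was 271, 269.8 and 209 untreated and 9791, 9962 and 3863 with LPS, 31.5-fold higher on the means (4.86 ± 0.37, adjusted p = 2.22e-06). Ccl5, a chemokine for T cells and monocytes, went from 599, 517 and 525 to 10432, 13494 and 5197 (4.04 ± 0.35, adjusted p = 5.46e-06). Il6 and Il12b overlapped no domain. A 69128 bp domain lay 33690 bp from Il6 (chr5:29910297-29979424), at the floor in all untreated libraries and at 7373, 9617 and 275 with LPS, at least 2412-fold higher. Replicate 3 was far below the other LPS libraries there, and in the late IL-10 group as well.

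Inflammatory effector genes had 20 domains, of which 16 rose and none fell (median difference 2.83), against 34.5% and 27.8% of all domains. Signal at Cd40, a co-stimulatory receptor gene, was 159, 195 and 112 untreated and 3713, 4070.1 and 1982 with LPS (4.35 ± 0.34, adjusted p = 2.93e-06). The domain of the serum amyloid A genes Saa1 to Saa4, acute phase proteins, stood at 65.7, 20.2 and the floor untreated and at 2953, 3558 and 1694 with LPS (7.69 ± 0.97, adjusted p = 7.75e-05). In the lipid metabolism list, the 127357 bp domain of Ch25h rose from 1028, 997 and 67.8 to 27385, 25032 and 4212 (5.11 ± 1.00, adjusted p = 0.00167). In both groups replicate 3 was the lowest at Ch25h.

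Genes of the NF-kB pathway had 16 domains, of which 12 rose and none fell (median 1.99). Tnfaip3 went from 2329, 2678 and 1706 to 23117, 30257 and 6279 (2.90 ± 0.57, adjusted p = 0.00175). Nfkbiz, which encodes an inducible co-activator of NF-kB targets, went from 79.2, 94.5 and 289 to 2672, 3732 and 1685 (4.30 ± 0.45, adjusted p = 2.38e-05). Interferon-response genes had 6 domains, of which 5 rose and 1, over Irf8, fell. Beside both lists, 34.5% of all domains rose and 27.8% fell. In the domain of Rsad2 and its neighbour Cmpk2, a mitochondrial kinase gene, signal was 308, 154 and 83.3 untreated and 5488, 5277 and 2221 with LPS (4.65 ± 0.65, adjusted p = 0.000159). Most genes of that list, Ifit1, Mx1 and Isg15 among them, overlapped no domain of this width.

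Targets of IL-10 and STAT3 had 21 domains, of which 8 rose and 4 fell with LPS (median 0.13). The shares over all domains were 34.5% and 27.8%. Without LPS replicate 1 or untreated replicate 3, 2 of the 21 fell. The domain of Socs3, 100056 bp wide, rose from 2579, 2812 and 4669 to 14682, 18663 and 17100.4 (2.37 ± 0.20, adjusted p = 4.95e-06). Il4ra fell from 2134, 1841 and 2654 to 931, 1230.1 and 1163 (-0.99 ± 0.25, adjusted p = 0.00831). Of 7 domains at immediate early genes, 2 rose, over Dusp2 and the second Fosl2 domain, and none fell. The share that rose was below the 34.5% of all domains. Of 20 domains at genes of the cytoskeleton and of adhesion, 7 rose, near the 34.5% of all domains, and 1, over Rhob, fell. Pairing or leaving out LPS replicate 3 gave 3 that fell.

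Macrophage identity genes had 29 domains, of which 13 fell and 3 rose (median -0.72), against 27.8% and 34.5% of all domains (median 0.14). Those that fell included Gpnmb (a glycoprotein of phagocytes), Trem2 (a lipid receptor), Lgals3 (galectin 3), Mertk (a receptor for dying cells), the cathepsin gene Ctsd and Csf1r. In the domain of Apoe, a lipid carrier of macrophages, signal was 3726, 3205 and 7294 untreated and 551, 721 and 1300.3 with LPS (-2.46 ± 0.38, adjusted p = 0.000339). The groups did not overlap. Those that rose were the domains of Cd14 and Tlr2, both receptors for bacterial products, and the wider Itgam domain. Of 6 domains at genes of lipid metabolism 3 fell and 1, over Ch25h, rose. Markers of other cells moved too: of 3 neutrophil marker domains 1 rose and 1 fell with LPS, of 5 dendritic cell marker domains 2 (Ccr7 and Bst2) rose and 1 (Siglech) fell, and the single domains with a B cell marker (Ms4a1, adjusted p = 0.0499) and a fibroblast marker fell. The Siglech call was kept only when LPS replicate 3 was the library left out, and the Ms4a1 call only when it was LPS replicate 1. Their part in the other results was not tested.

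Macrophage transcription factor genes had 32 domains, of which 9 rose and 9 fell (median -0.24), against 34.5% and 27.8% of all domains. Pairing gave 10 and 14, and leaving out single libraries 6 (without LPS replicate 2) to 10 and 7 to 12. A 191681 bp domain at Cebpb rose from 13769, 13249 and 21345 to 23678, 25069 and 34026 (0.79 ± 0.19, adjusted p = 0.00681). Both Foxp1 domains fell, the one at chr6:99424822-99454634 from 2807, 3482 and 3564 to 11.8, 1.68 and 184 (-7.46 ± 1.69, adjusted p = 0.00413). Over Cux1, a homeobox gene, a 105712 bp domain fell from 6569.6, 6647 and 4456 to 986, 1254 and 940.4 (-2.46 ± 0.24, adjusted p = 1.25e-05). Irf8, a lineage factor of myeloid cells, fell from 2092, 2008 and 3175 to 533, 657 and 861 (-1.82 ± 0.27, adjusted p = 0.000254). At Cux1 and Irf8 the groups did not overlap. Domains of Rxra (2 of them), Bach1, Tfeb and Fli1 also fell, and those of Spi1, Ikzf1 (2), Etv6 (2), Mitf, Bcl6 and 1 of the 2 at Zeb2 rose.

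**Figure D3:**
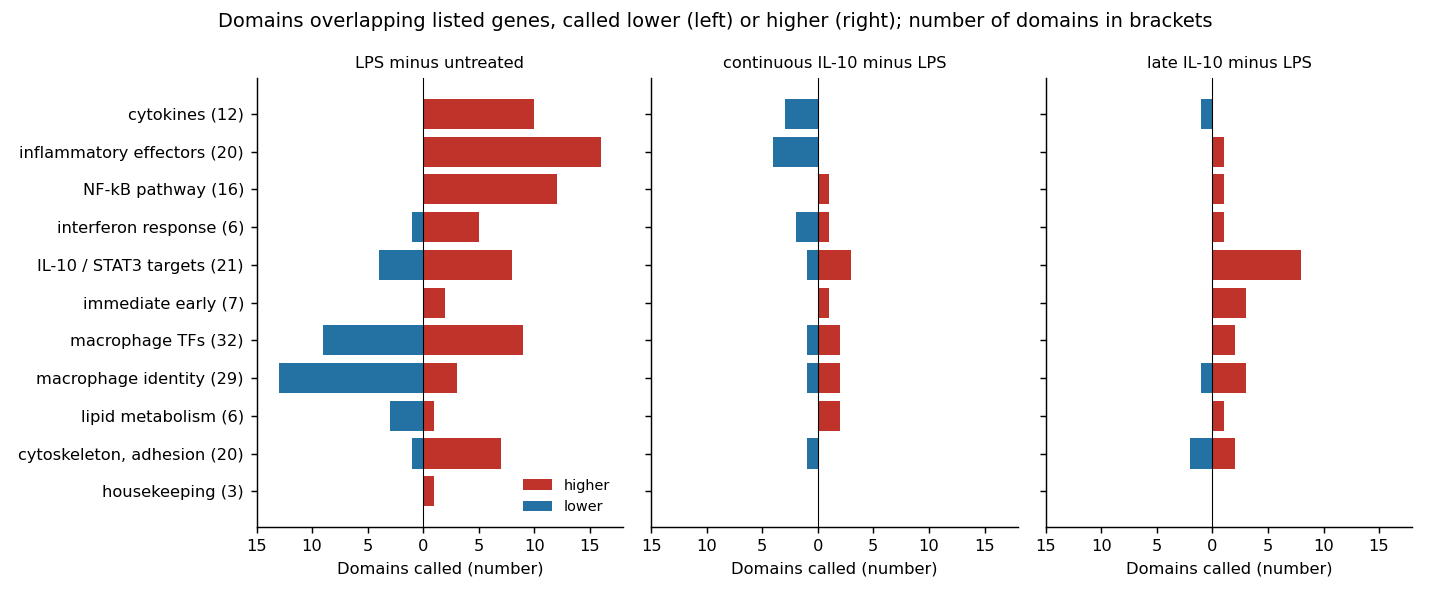
Number of domains called higher (right of 0) and lower (left of 0) in each gene list, for LPS minus untreated, continuous IL-10 minus LPS and late IL-10 minus LPS. With LPS the cytokine, effector and NF-kB lists have 10 of 12, 16 of 20 and 12 of 16 domains higher and none lower, and the identity list has 13 of 29 lower. Of all domains 34.5% were higher and 27.8% lower with LPS.

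The largest falls went to the floor in all 3 LPS libraries. Cadm1, a cell adhesion gene, had 2896, 3177 and 2102 untreated, and was at least 663-fold lower with LPS (adjusted p = 5.88e-06). Slco2b1, an organic anion transporter gene, had 2282, 2096 and 1221 (at least 454-fold lower with LPS, adjusted p = 0.000149). Dusp27 and Slc16a7 fell by at least 391-fold and 385-fold, and a domain near 3110040M04Rik by at least 516-fold. With late IL-10 all 5 were at the floor in every library.

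Among the 47 domains with a miRNA gene, 13 rose and 12 fell with LPS, no larger shares than the 34.5% and 27.8% of all domains. The Vmp1 domain, which holds the miR-21a gene, rose from 6243, 9198 and 7801 to 20270.2, 31571 and 11861 (1.36 ± 0.31, adjusted p = 0.00454). Over Cd46, where the miR-29b and miR-29c genes lie side by side, signal rose from 509, 649 and 447 to 1535, 2346 and 1285 (1.65 ± 0.33, adjusted p = 0.002). The Gpr146 domain with the miR-339 gene fell from 3912, 3749 and 6423 to 98.4, 304 and 1296 (-3.74 ± 0.67, adjusted p = 0.000851). With late IL-10 that domain stood at 2858, 4013 and 5041, above all LPS libraries (3.51 ± 0.67, adjusted p = 0.00915). It also rose with continuous IL-10 (2.92 above LPS, limma adjusted p = 0.0209). Late minus continuous IL-10 was 0.59 there (limma adjusted p = 0.734).

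Of the 178 genes with more than 1 domain, 65 had at least 2 called with LPS in the same direction and 13 had domains called in both directions. Itgam, the gene of the integrin CD11b, was among the 13. Its 41384 bp domain rose from 394, 653 and 426 to 3603, 4124 and 1886 (2.66 ± 0.33, adjusted p = 7.54e-05), while the 29059 bp domain holding its start fell from 2601, 3716 and 3197 to 1918, 1941 and 1466 (-0.83 ± 0.21, adjusted p = 0.00827). The groups overlapped in neither. The other 12 were Nav1, Itpkb, Dock4, Prkcd, Arhgap22, Asap1, Rftn1, Sgms1, Rapgef1, Atp8b4, Susd1 and Sh3kbp1.

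Continuous IL-10 was compared with LPS alone to ask what IL-10 changed when present from the start. More domains rose than fell. Of the 1788 domains, 192 rose (10.7%, against 3.28% of all regions tested) and 83 fell (4.64%, against 3.24%), with medians of 1.62 and -1.65 among them. Cytokine, effector and interferon domains were among those that fell, and Il4ra, Cux1 and Zfp618 were among those that rose. With replicates paired, 21.3% rose and 14.3% fell. Without LPS replicate 3 the shares were 14.0% and 11.6%, and without replicate 3 of every group 305 rose and 273 fell. The LPS libraries serve in this comparison, in the late IL-10 comparison and in the one with untreated cells, so the 3 are not independent.

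Of the 12 cytokine domains 3 fell and none rose (median -1.17), over Tnf, Cxcl10 and Ccl5. Leaving out single libraries gave 0 (without LPS replicate 2) to 6 (without LPS replicate 3), and pairing gave 5. Of all domains 4.64% fell and 10.7% rose (median 0.08). Over Cxcl10 signal was 2789, 1506 and 1892 with continuous IL-10, below every LPS library (-1.86 ± 0.37, adjusted p = 0.0112). Without LPS replicate 1, LPS replicate 2 or continuous replicate 2 the adjusted p was 0.0554, 0.0552 and 0.0552. Over Tnf it was 7771, 9600.4 and 9772, also below every LPS library (-0.82 ± 0.18, adjusted p = 0.0157, and 0.0622 and 0.0635 without LPS replicate 2 and continuous replicate 1). The Ccl5 call (-1.27 ± 0.35, limma adjusted p = 0.0454) was lost without any single library but LPS replicate 3, with an adjusted p of up to 0.189.

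The domain near Il6 fell to the floor in all continuous IL-10 libraries, at least 1460.0-fold below LPS (adjusted p = 0.000816). In late IL-10 cells it was at 5037, 6785 and 306, overlapping the LPS libraries, and at least 1025-fold above continuous IL-10 (adjusted p = 0.00663). A domain 15601 bp from Il12b was at 2399, 1963 and 197 with LPS and at the floor with continuous IL-10, at least 385-fold lower (adjusted p = 0.023). That call was lost on leaving out any single library except LPS replicate 3, with an adjusted p of up to 0.0959. The domain of Rsad2 and Cmpk2 fell to 501, 301 and 107 (-3.98 ± 0.65, adjusted p = 0.00365). These values overlapped the untreated ones, and no continuous IL-10 library reached an LPS library. Of the 6 interferon-response domains 2 fell, Rsad2 and Irf1, and 1, Irf8, rose (0.99 ± 0.27, adjusted p = 0.0463). Pairing gave 2 higher and 3 lower, and of all domains 10.7% were higher and 4.64% lower. The Irf8 call was lost without any single library but LPS replicate 3, and without LPS replicate 2 or continuous replicate 2 only 1 domain fell.

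Of the 20 effector domains 4 fell and none rose, Adora2a, Cd40 and Icam1 among them (median -0.28). Without LPS replicate 1 or 2 none of the 4 passed, and without LPS replicate 3 there were 5. At Cd40 signal was 1050.5, 948 and 818, below every LPS library (-1.73 ± 0.34, adjusted p = 0.0108, and 0.0503 and 0.0552 without LPS replicates 1 and 2). Of the 16 NF-kB domains 1 rose, over Map3k8, a kinase gene, and none fell, while pairing gave 2 and 4. Of all domains 10.7% rose and 4.64% fell. The Map3k8 call (1.10 ± 0.30, adjusted p = 0.0464) was lost without any single library but LPS replicate 2. Axl, a receptor for dying cells, fell from 4913, 4798 and 5685 to 1042, 1189 and 1635 (-2.02 ± 0.25, adjusted p = 0.000758), with no overlap. A 21993 bp domain over Tns1, which encodes the focal adhesion protein tensin, fell from 242, 240.3 and 174 to the floor in replicates 1 and 2 and 14.8 in replicate 3 (-5.57 ± 0.87, adjusted p = 0.00296).

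Among domains that rose, 2 lay side by side in Zfp618, a zinc finger gene. The narrower one (chr4:63042912-63064022) was at the floor in every LPS library, at 0.707, 1.26 and 2.09 in untreated cells and at 3480.2, 2172 and 2052 with continuous IL-10, at least 625-fold higher than LPS (adjusted p = 3.69e-06). The wider one stood at 3435, 1750.4 and 2307 (257-fold on the means, adjusted p = 9.39e-05), with LPS replicate 3 at 25.5 and the other LPS libraries at the floor. Hcfc2, which encodes a homologue of host cell factor, went from 1.97, 1.68 and 64.9 to 1150.0, 678 and 982 (6.83 ± 1.22, adjusted p = 0.00595). Srgap3 went from the floor to 209, 192 and 142, at least 44-fold higher (adjusted p = 0.000373). It was the only domain at or under 3 reads in every untreated and LPS library with more than 100 reads in every library of both IL-10 groups.

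Of the 21 IL-10 and STAT3 target domains 3 rose and 1 fell (median 0.43), near the 10.7% and 4.64% of all domains. Those that rose were Il4ra, Sbno2 and Bcl3, and Cish, a feedback inhibitor gene, fell. The calls at Sbno2 and Cish were lost without any 1 of 5 libraries (all but LPS replicate 3) and the one at Bcl3 without any of 4, with adjusted p-values of up to 0.0884, 0.176 and 0.117. Pairing gave 7 and 2, and leaving out single libraries 1 to 4 and 0 to 2. Il4ra stood at 6613, 4357 and 4774, above every LPS and every untreated library (2.23 ± 0.25, adjusted p = 0.000396). Of 29 identity domains 2 rose, over Itgam and Apoe, and 1, over Axl, fell, against 10.7% and 4.64% of all domains. With replicates paired the counts were 7 and 2. The Apoe call (1.5 ± 0.38, adjusted p = 0.0345) was lost without any 1 of the same 5 libraries. The Itgam domain at the start went to 5868, 7140.0 and 5766 (1.82 ± 0.21, adjusted p = 0.000458), while the wider Itgam domain was at 2035, 1916 and 1261 (-0.84, adjusted p = 0.175). Cux1 rose to 4416, 3828 and 3978, above the LPS and below the untreated libraries (1.95 ± 0.24, adjusted p = 0.000642). Of the 32 macrophage transcription factor domains 2 rose and 1, over Ikzf1, fell, against 10.7% and 4.64% of all domains. Pairing gave 3 and 2 for that list. The Ikzf1 call (-1.31 ± 0.28, limma adjusted p = 0.0145) was lost without LPS replicate 2 or continuous replicate 2. Zc3h12d, an RNase gene of immune cells, went from 2458, 2445 and 1920.3 with LPS to 10183, 8419 and 6856 (1.89 ± 0.22, adjusted p = 0.000458).

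**Figure D4:**
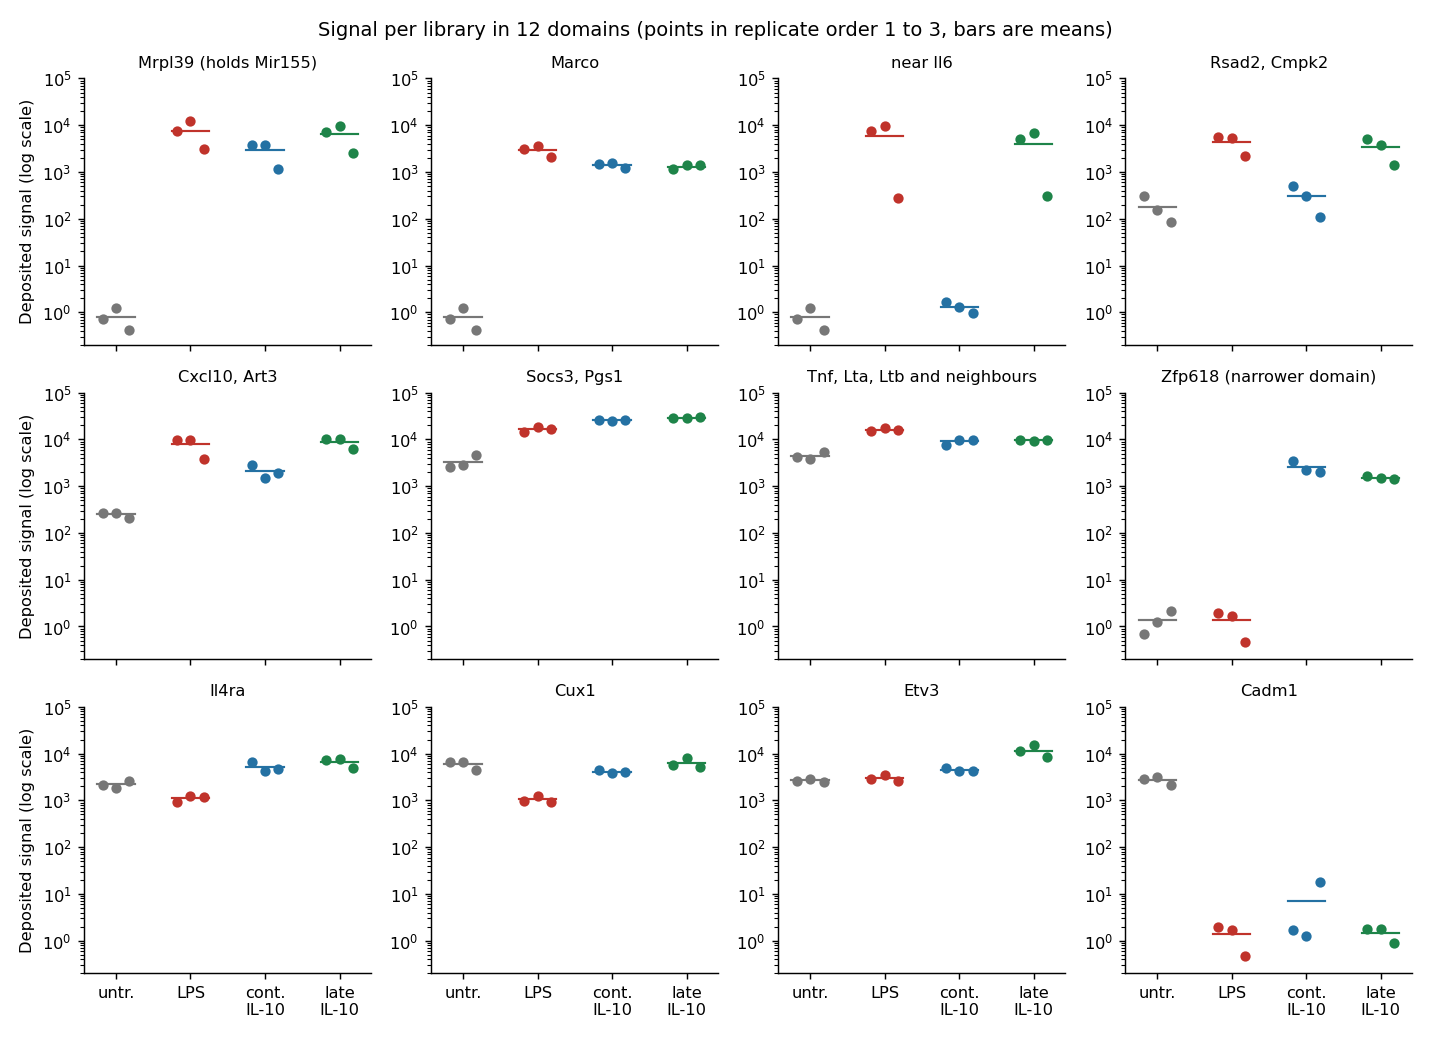
Deposited signal in each of the 12 libraries, on a log axis, for 12 domains named in the text, with a colour per group and a point per library. Mrpl39, Marco and the domain near Il6 sit at the floor in untreated cells, the narrower Zfp618 domain is high only in the IL-10 groups, and Cadm1 only in untreated cells.

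Late IL-10 was compared with LPS alone to ask what the last 30 min with IL-10 changed. Most changes were gains. Of the 1788 domains 189 rose (10.6%, against 3.14% of all regions) and 24 fell (1.34%, against 0.396%), with medians of 1.80 and -1.40 among them. Gains of more than 4-fold were seen at 77 domains and losses of that size at 2, counts that were not made over all regions. Targets of IL-10 and STAT3, immediate early genes and Cux1 were among the gains. With replicates paired 19.1% rose and 7.27% fell. Quantile normalization moved the split to 162 and 46, and without replicate 3 of every group it was 253 and 58. Without late replicate 1 the share that fell was 0.224% and without late replicate 3 it was 2.35%.

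Of the 21 IL-10 and STAT3 target domains 8 rose and none fell (median 0.80). Over all domains 10.6% rose and 1.34% fell, with a median of 0.09, against -0.12 over all regions. The 8 were both domains of Il4ra and those of Etv3, Sbno2, Bcl3, Batf, Dusp1 and Socs3. Leaving out single libraries gave 5 to 8, and pairing gave 11. Etv3, which encodes an ETS repressor induced by IL-10, went from 2932, 3554 and 2602 to 11287, 15263 and 8427 (1.91 ± 0.23, adjusted p = 0.000443). Sbno2, a co-regulator gene induced by IL-10, went from 771, 1018 and 1608 to 5343, 5479 and 4714 (2.26 ± 0.29, adjusted p = 0.000784). In both the groups were far apart.

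Bcl3, an NF-kB family regulator gene, went from 1529, 1608 and 2590.4 to 6497, 6531 and 6511 (1.81 ± 0.25, adjusted p = 0.0013). The narrower Il4ra domain, which holds the promoter shown above, stood at 7192, 7674 and 4949 (2.56 ± 0.25, adjusted p = 0.000104), above every LPS library. Socs3 went to 29279.8, 28807 and 29545, above every LPS library (0.80 ± 0.20, adjusted p = 0.044). That call was lost without any 1 of the 6 libraries, with an adjusted p of up to 0.163. In the continuous IL-10 group Socs3 stood at 26550.0, 25317 and 26424 (0.64, adjusted p = 0.0801, and 0.0221 with replicates paired).

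Of 7 immediate early domains 3 rose and none fell (median 1.26), over Dusp1, Ier3 and the start of Fosl2. From 1 to 3 rose on leaving out single libraries. Of all domains 10.6% rose and 1.34% fell (median 0.09). Ier3, a stress-response gene, went from 1733, 2116 and 1625 to 5003, 5036 and 4141 (1.38 ± 0.22, adjusted p = 0.00305). Dusp1, which encodes a MAP kinase phosphatase, went from 2794, 3399.6 and 3129.7 to 9149, 10920.4 and 5955 (1.44 ± 0.28, adjusted p = 0.0095, and up to 0.0575 without late replicates 1 or 2). At the start of Fosl2 signal went to 6039, 4997 and 5513 (1.62 ± 0.33, adjusted p = 0.0141, and up to 0.075 without LPS replicate 1, LPS replicate 2 or late replicate 1).

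Of 12 cytokine domains 1 fell, over Tnf, which stood at 9709, 9309.6 and 9894, below every LPS library (-0.72 ± 0.18, adjusted p = 0.0379). The Tnf call was lost without any 1 of the 6 libraries (adjusted p up to 0.127). The list's median was 0.12, against 0.09 over all domains, of which 10.6% rose and 1.34% fell. Cxcl10 stood at 10264, 10202 and 6167 (0.26, adjusted p = 0.94), and the Rsad2 domain at 5125, 3698 and 1383 (-0.43, adjusted p = 0.949), both overlapping LPS.

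The largest gains included both Zfp618 domains, at 1648, 1484 and 1449 (at least 371-fold) and at 1428, 1125 and 1680.2 (145-fold on the means), and Srgap3 at 1483, 1664 and 694 (at least 311-fold, adjusted p = 1.99e-05). Hcfc2 stood at 2874, 2784 and 2248 (8.34 ± 1.22, adjusted p = 0.00177). A domain 52891 bp from Syk, a kinase gene, was at 496, 189 and 642 untreated, at 27.5, 1.68 and 0.464 with LPS and at 993, 862 and 1027 with late IL-10 (7.64 ± 0.88, adjusted p = 0.000349). Cux1 stood at 5749.9, 7903 and 5062, overlapping the untreated libraries (2.54 ± 0.24 above LPS, adjusted p = 7.44e-05). Bach1, which encodes a heme-responsive repressor, went from 340.4, 187 and 755 to 2242, 2193 and 1853 (2.52 ± 0.42, adjusted p = 0.0044). Cux1 and Bach1 were the only 2 of the 32 macrophage transcription factor domains that rose, and none fell. Pairing gave 7 and 2 for that list. Of the 29 macrophage identity domains 3 rose and 1 fell (median -0.13). Beside both lists, 10.6% of all domains rose and 1.34% fell. The identity domains that rose were Mrc1, P2ry6 and the Itgam domain at the start, and Axl fell. Pairing gave 7 and 5, and leaving out single libraries 2 to 5 (5 without LPS replicate 2) and 0 to 2. The Axl call (-1.03 ± 0.25, adjusted p = 0.0376) was lost without any 1 of the 6 libraries. Mrc1, the mannose receptor gene, went from 413, 343 and 197 to 1338, 1951 and 958 (2.16 ± 0.38, adjusted p = 0.00548). Neither overlapped LPS. Of 3 neutrophil marker domains 2 rose, among them Csf3r, from 2341, 3116 and 1764 to 6342, 5879 and 6152 (1.38 ± 0.26, adjusted p = 0.00821), and their part in the other results was not tested.

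Of the 24 that fell, Rhob, a small GTPase gene, went from 1348, 1474 and 1316 to 498, 493 and 543 (-1.43 ± 0.24, adjusted p = 0.00368). A domain 9013 bp from Zfp90 went from 301, 249 and 304 to 56.4, 14.3 and 64.7 (-2.88 ± 0.50, adjusted p = 0.00514). A domain 3834 bp from Art2b went from 1922, 2254 and 1255 to 326, 357 and 376 (-2.32 ± 0.38, adjusted p = 0.00349), and continuous IL-10 left it at 201, 273 and 522 (-2.52 ± 0.38, adjusted p = 0.00217). None of these groups overlapped LPS with late IL-10, which for the domains near Zfp90 and Art2b was a condition of their choice.

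Late and continuous IL-10 were also compared directly. Of the 1788 domains 80 were higher with late IL-10 (4.47%, against 1.86% of all regions) and 48 were lower (2.68%, against 0.852%). Quantile normalization turned that split to 59 and 83. The counts rested on single libraries, with 0.224% and 0.168% called without late replicate 1 and 8.28% and 6.66% without late replicate 3. With replicates paired they were 17.5% and 13.2%, and without replicate 3 of every group 319 and 166 domains.

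The domain near Il6, Rsad2, Cxcl10, Cd40 and Tns1 were higher with late IL-10. Tns1 stood at 601, 358 and 94.8 (5.90 ± 0.87, adjusted p = 0.00754, and 0.0567 without late replicate 1). Rsad2 differed by 3.55 ± 0.65 (adjusted p = 0.0161, up to 0.101 without late replicates 1 or 2 or continuous replicates 2 or 3). Cxcl10 differed by 2.11 ± 0.37 (adjusted p = 0.0137, up to 0.0872 without late replicates 1 or 2 or continuous replicate 2). Neither had overlapping groups. Etv3 was higher by 1.34 ± 0.23 (adjusted p = 0.0128, up to 0.0738 without late replicates 1 or 2 or continuous replicate 2). Of the 21 IL-10 and STAT3 target domains 2 were higher (Etv3 and Cish), 0 to 4 on leaving out single libraries and 9 with replicates paired. Over all domains 4.47% were higher and 2.68% lower. Of the 29 macrophage identity domains 1 was higher and none lower, but 11 were lower with replicates paired and 6 without replicate 3 of every group.

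Lower with late IL-10 were the domain near Zfp90 (-3.24 ± 0.50, adjusted p = 0.00845) and the domain of Psmd1 and Htr2b, the latter a serotonin receptor gene. That domain held 1407, 1351 and 1897 untreated and 53.1, 43.7 and 38.5 after LPS. It held 605, 377 and 355 in the continuous group and 49.3, 34 and 148 in the late group (-2.76 ± 0.51 against continuous, adjusted p = 0.0164). This call was lost without replicates 1 or 2 of either IL-10 group, with an adjusted p of up to 0.0949. The continuous IL-10 libraries stood above LPS and below untreated with no overlap (3.25 ± 0.51 against LPS, adjusted p = 0.00296).

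By group mean, 619 domains were highest in untreated cells (34.6%), 392 with LPS, 195 with continuous IL-10 and 585 with late IL-10. No comparison called 533 of the domains, 925 were called in 1 comparison, 197 in 2, 133 in 3 and 3 in all 4. Neither set of counts was made over all regions, so they do not show a trait of broad domains. Among well covered domains, group means varied least over Igf2r (the mannose 6-phosphate receptor), over Kcnn4 and Smg9, over Tefm, Adap2 and Rnf135, over Chd2 (a chromatin remodeller) and over BC049352 and Il10ra. The last lies beside the second domain of Il10ra, which encodes the IL-10 receptor chain. At Igf2r signal was 1657, 2193 and 1833 untreated and 1647, 2816 and 1449.6 after LPS. In the continuous group it was 1927, 2211 and 1701 and in the late group 1795, 2680.4 and 1717, with all groups overlapping.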

How the data were processed

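H3K27ac ChIP-seq values came from 12 libraries, 4 groups of 3, as 1 deposited table of consensus regions. Per the submitters' processing notes, reads were handled with Trim Galore, Bowtie2, MACS2 and DiffBind on mm10, at versions not given in the sources used here. Values are normalised signal that the authors deposited. Within a library all of them (100%) were whole multiples, within 0.0001 reads, of 1 factor, so whole reads were recovered. An input library was not used here. Columns not matched to a sample numbered 0.

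Regions above the 10th percentile of mean log2 value (36621, with 1788 of the domains) were tested with limma 3.58.1 in R 4.3.3 on log2(value + 1), with trend and robust settings, group as the only term and all 12 libraries. P-values were adjusted over all regions by Benjamini-Hochberg, and a call is an adjusted p under 0.05. A difference is in log2(value + 1), which understates the change of low regions; ± after it is a standard error, and folds are ratios of group means or, against a group at the floor, bounds at 3 reads per library. On the recovered reads edgeR 4.0.16 (quasi-likelihood) called 635 domains higher and 457 lower with LPS, 134 and 88 with continuous IL-10. Both tools were tested on simulated data. Python 3.11.15, pandas 2.3.3, numpy 2.4.6 and matplotlib 3.10.9 were used.

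Replicate numbers mark the 3 macrophage pools of the series' design, and deviations correlated at 0.149 to 0.712 in all 12 same-numbered pairs of compared groups, so replicates were taken as paired in the alternative with a replicate block. Domains were named by the protein-coding genes they overlap in RefSeq, otherwise the nearest within 100 kb. Those named are the 5 with the largest rises and falls per comparison without overlap, the 5 widest, highest and most stable, up to 6 per gene list and the 2 on each side of the threshold. The members and the 17 gene lists were chosen with earlier results of these data known. Other alternatives were pseudocounts 8 and 32, other filters and scalings, other widths and leaving out single libraries.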

Additional observations from a re-analysis of the deposited data

How the results depend on the processing

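The percent of domains called higher and lower is given here as a pair. Fitting only the 2 groups compared gave 4.31 and 1.73 for continuous IL-10 minus LPS, 3.64 and 0.112 for late IL-10 minus LPS and 1.40 and 0.503 for late minus continuous. The replicate block, which pairs the pools, gave 21.3 and 14.3, 19.1 and 7.27, and 17.5 and 13.2, and 40.3 and 34.2 for LPS minus untreated. Without replicate 3 of every group the pairs were 17.1 and 15.3 and 17.8 and 9.28 for continuous minus LPS and late minus continuous, and 3.24 fell with late IL-10. Quantile normalization gave 2.57 lower for late minus LPS with a median of -0.05, and 4.64 lower for late minus continuous with a median of -0.12. Centring libraries on their medians gave 39.2 and 21.8 for LPS.

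Leaving out 1 library at a time, the percents ranged over 26.9 to 39.3 higher and 22.9 to 29.4 lower for LPS, 5.7 to 14.0 and 1.34 to 11.6 for continuous minus LPS, 6.21 to 10.8 and 0.224 to 2.35 for late minus LPS, and 0.224 to 8.28 and 0.168 to 6.66 for late minus continuous. In that order of comparisons the medians ranged over -0.02 to 0.28, -0.06 to 0.23, -0.06 to 0.25 and 0.02 to 0.26, and the differences in signal share over 0.62 to 6.77, -1.03 to 5.12, 0.582 to 6.73 and -0.548 to 3.75 percentage points. Medians over all domains thus changed sign in some of these fits. Quantile normalization turned the late minus continuous split from 80 higher and 48 lower to 59 and 83. Of 222 calls at named domains, 112 held under every alternative run, 84 were lost with only the 2 groups, 28 with edgeR, 28 with median centring, 22 with quantile normalization, 14 without replicate 3 of every group, 9 with no filter, 2 with a pseudocount of 32, and 1 each with the stricter filter and the replicate block. Leaving out 1 library at a time lost a call in 352 repeats and kept it in 980. The cause of these changes was not tested. The fit of 2 groups and the fits that leave a library out also held fewer samples. With 3 libraries a group, domains with few reads are the least precise.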
